A study of Mus musculus with 16 samples.

Results

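The genes of acid secretion by osteoclasts were followed in cortical bone of mice after hindlimb unloading (HLU). They are 10 genes written down by name: the V-ATPase subunit genes Atp6v0d2, Atp6v0d1, Tcirg1, Atp6v1a, Atp6v1b2 and Atp6v1c1, the chloride transporter gene Clcn7 with its partner Ostm1, the anion exchanger gene Slc4a2, and the adaptor gene Plekhm1. Each has exactly 1 row among the 36829 features of the deposited tables, and all 10 were among the 16973 features kept after a filter on low abundance. The RNA came from femoral cortical bone, with the marrow flushed out, of female C57Bl/6 mice aged 11 weeks. Hindlimbs of the 8 HLU mice were kept off the ground for 7 days by tail suspension, and the 8 control (Cont) mice bore weight normally. Each mouse is 1 library, no genetic change is given for either group, and per the methods the tails of HLU mice were taped to the harness under isoflurane anaesthesia. Values were taken as RPKM, the reads on a gene per kilobase of its length, scaled by the number of reads in the library. The labels do not name the unit, and whether the divisor of a library also holds a scaling between libraries is not known.

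An osteoclast dissolves bone mineral by pumping acid onto the bone surface beneath it. Its ruffled border carries the V-ATPase, a rotary proton pump with a membrane sector (V0) and a cytosolic sector (V1) that hydrolyses ATP. Chloride follows the protons through the exchanger encoded by Clcn7, and bicarbonate left in the cytosol leaves across the opposite membrane through the anion exchanger encoded by Slc4a2. Most V-ATPase subunits serve lysosomes and other compartments of every cell, but the a3 subunit (Tcirg1) and the d2 subunit (Atp6v0d2) are enriched in osteoclasts. Loss of Tcirg1, Clcn7, Ostm1 or Plekhm1 is known to cause osteopetrosis, dense bone that osteoclasts fail to resorb.

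The libraries held between 6410448 and 18374202 reads on the listed features, as recovered from the RPKM values. Osteoclast markers were present in every mouse, with summed abundances of the marker list from 849 to 2089 RPKM in control mice and from 850 to 2053 RPKM in HLU mice. Ctsk, the collagen-degrading protease of osteoclasts, averaged 676 RPKM in control and 815 RPKM in HLU mice (limma, unadjusted p = 0.282). Its log2 fold change of 0.26 was the highest of the 9 osteoclast markers tested, of which 5 were below 0 and the lowest was -0.46. The score of the list, the mean log2 deviation of its genes, differed by -0.06, HLU minus control (exact permutation test, two-sided, p = 0.738). Of the other cell types whose markers were summed, erythroid cells ranged from 2313 to 5276 RPKM in control and from 1072 to 2959 RPKM in HLU mice (exact permutation test of the score, two-sided, p = 0.0519, adjusted over 6 lists p = 0.311), and granulocyte, macrophage, B cell and osteoblast and osteocyte lists gave adjusted p from 0.354 to 0.738 by the same exact test. The 10 skeletal muscle markers written down had no row in the files used, so muscle RNA was not analysed here. The libraries also differed in how strongly genes rich in G and C were represented. This GC tilt, the mean log2 deviation of genes with a GC content of 54.1% or more minus that of genes at 44.9% or less, ranged from -1.01 in HLU 4 to 0.67 in Control 5 and was equal on average in the groups (difference 0.0037, exact p = 0.990). HLU 4 therefore stands at the end of that scale, and the differences of the members that are lowest in HLU 4 are also given without it.

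Promoter sequences are shown for Clcn7 and Atp6v1a, since these were the only members with an E-box in the 250 bases before a transcription start, and since they belong to the 2 sets of members that varied together between mice. RefSeq promoters on GRCm38.p6 were matched by symbol for 7 of the 10 members, and those of Atp6v0d2, Atp6v1b2 and Atp6v1c1 were not used here. Both windows are written 5′ to 3′ on the strand of the gene, with the E-box CACGTG, the core of the element that TFEB and its relatives bind in promoters of lysosomal genes, in capitals. The Clcn7 window is chr17:25133141-25133390 on the plus strand and the Atp6v1a window is chr16:44139260-44139509 on the minus strand.
Clcn7: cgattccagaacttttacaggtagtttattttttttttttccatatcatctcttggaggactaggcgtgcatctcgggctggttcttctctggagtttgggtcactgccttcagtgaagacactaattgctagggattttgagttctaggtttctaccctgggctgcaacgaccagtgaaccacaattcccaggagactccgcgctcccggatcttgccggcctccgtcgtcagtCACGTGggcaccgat
Atp6v1a: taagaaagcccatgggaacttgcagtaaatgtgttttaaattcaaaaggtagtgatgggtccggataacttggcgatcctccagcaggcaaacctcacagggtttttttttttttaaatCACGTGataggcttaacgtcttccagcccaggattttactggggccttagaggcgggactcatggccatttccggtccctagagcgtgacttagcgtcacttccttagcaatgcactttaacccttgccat
The hexamer begins 15 bases before the start of Clcn7 and 131 bases before that of Atp6v1a, and only in Atp6v1a is it part of the longer palindrome TCACGTGA. Over all 32851 RefSeq promoter windows of that length, 6.02% hold CACGTG and 0.785% hold TCACGTGA. The GC box GGGCGG, which 32.7% of all windows hold on either strand, was in the windows of Tcirg1, Plekhm1 and Ostm1. No member window held the AP-1 motif TGANTCA (6.75% of all windows) or TATAAA (12.4%), also searched on both strands. These matches describe letters and not binding.

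Whether unloading for a week alters the transcripts of the acid machinery was addressed by comparing HLU with control mice. None of the 10 genes differed between the groups beyond the spread between mice. The unadjusted threshold (limma p under 0.05 with 1.2-fold or more) was passed by 0 of 10 members, against 5.87% of all features tested (1.11% higher and 4.76% lower in HLU). After Benjamini-Hochberg adjustment no feature of 16973 passed at 0.1 in limma (0%), while 1049 had an unadjusted p under 0.05 and limma's voom on recovered reads passed 1. Adjusted p of the members lay between 0.757 and 0.940. All 10 log2 fold changes were below 0, with a median of -0.14, but so were those of 67.9% of all features, whose median was -0.10. With libraries rescaled by the median of ratios, 6 of 10 members and 53.7% of all features were below 0, so the direction depends on the scaling. In whole bone, fewer osteoclasts and less RNA per osteoclast cannot be told apart.

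**Figure D1:**
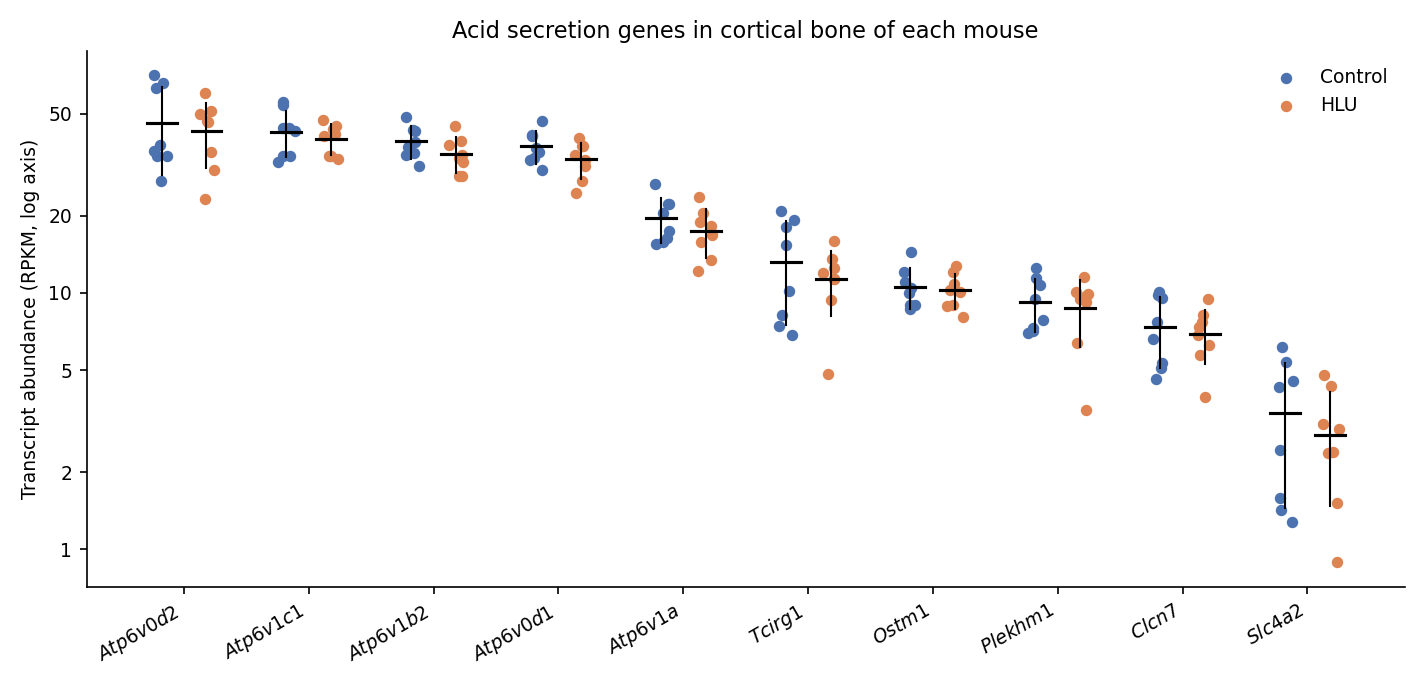
Transcript abundance of the 10 members in each of 16 mice (RPKM, log axis), ordered by mean level, with control and HLU mice side by side. Horizontal lines are group means and vertical lines 1 SD on each side. The groups overlap for every member, and Slc4a2 and Tcirg1 have the widest range from lowest to highest mouse in both groups.

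Atp6v0d2 encodes the d2 subunit of V0, which also takes part in fusion of osteoclast precursors. Its abundance in control mice was 27.3 RPKM at the lowest, 36.8 at the median and 70.7 at the highest. In HLU mice the lowest, median and highest values were 23.2, 46.6 and 60.4 RPKM. Control 1, 4 and 8 stood at 63.1 RPKM or more while the other 5 control mice were at 37.9 or less. HLU 1, 2, 4, 5 and 6 lay between these levels, and HLU 3, 7 and 8 were at 35.5 RPKM or less. The means were 46.1 ± 17.3 and 43.0 ± 12.3 RPKM (SD, n = 8 each), and the log2 fold change was -0.08 ± 0.23 (SE, 95% interval -0.57 to 0.42; exact permutation test, two-sided, p = 0.761).

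Atp6v0d1, the d subunit found in nearly all cells, was far steadier. Its control values ran from 30.1 through a median of 36.1 to 46.8 RPKM, and its HLU values from 24.6 through 33.8 to 40.1 RPKM. The coefficient of variation was 14.6% in control and 15.9% in HLU mice, against 37.6% and 28.7% for Atp6v0d2. Means of 37.3 ± 5.44 and 33.2 ± 5.26 RPKM gave a log2 fold change of -0.17 ± 0.12 (SE, 95% interval -0.42 to 0.08; exact permutation p = 0.149), and 5 of 8 HLU mice were below the control median. It was -0.11 without HLU 4, the lowest mouse.

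Tcirg1 encodes the a3 subunit, which anchors the pump in the ruffled border. Control mice ranged from 6.85 to 20.9 RPKM with a median of 12.8, and HLU mice from 4.82 to 15.9 RPKM with a median of 11.7. The control mice parted into Control 1, 2, 4 and 6 at 10.2 RPKM or less and Control 3, 5, 7 and 8 at 15.4 RPKM or more. Among HLU mice, 7 lay between 9.41 and 15.9 RPKM and HLU 4 stood below them at 4.82. The means of 13.3 ± 5.75 and 11.3 ± 3.24 RPKM (n = 8 each) differed by -0.16 ± 0.28 on the log2 scale (SE, exact permutation p = 0.584), and without HLU 4 the difference was 0.00046.

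The catalytic A subunit of V1, Atp6v1a, had control values of 15.5, 19.0 and 26.6 RPKM (lowest, median, highest) and HLU values of 12.2, 17.6 and 23.6 RPKM. Its log2 fold change was -0.17 ± 0.15 (SE, exact permutation p = 0.273), with 6 of 8 HLU mice under the control median. The B2 subunit, Atp6v1b2, shares the nucleotide-binding sites with A. Its values were 31.4, 37.9 and 48.7 RPKM in control and 28.4, 34.1 and 44.9 RPKM in HLU mice, with a log2 fold change of -0.16 ± 0.12 (SE, exact permutation p = 0.159). Atp6v1c1 encodes subunit C, which links V1 to V0 and is released when the pump disassembles. It measured 32.5, 43.3 and 55.3 RPKM in control and 33.4, 41.4 and 47.4 RPKM in HLU mice, a log2 fold change of -0.08 ± 0.13 (SE, exact permutation p = 0.570). For all 3 genes the range of HLU mice overlapped most of the control range.

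Clcn7 exchanges chloride for protons and Ostm1 is the membrane protein without which it is unstable. Clcn7 stood at 4.62, 7.16 and 10.1 RPKM in control mice (lowest, median, highest) and at 3.94, 7.11 and 9.44 RPKM in HLU mice. Control 1, 2 and 4 and HLU 4 were the lowest mice, as they were for Tcirg1. Ostm1 ran from 8.66 through 10.3 to 14.4 RPKM in control and from 8.03 through 10.2 to 12.8 RPKM in HLU mice, and its highest control value was in Control 1, the mouse with the lowest Clcn7. The log2 fold changes were -0.06 ± 0.20 for Clcn7 (SE, exact permutation p = 0.763, and 0.045 without HLU 4) and -0.04 ± 0.13 for Ostm1 (SE, exact permutation p = 0.735).

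Slc4a2, which exports bicarbonate, was the least abundant and the most variable member. Control mice were at 1.27, 3.37 and 6.18 RPKM (lowest, median, highest) and HLU mice at 0.892, 2.68 and 4.77 RPKM, so that the highest value was 4.85 times the lowest among control mice and 5.35 times among HLU mice. The low control mice were again Control 1, 2, 4 and 6, and HLU 4 was the lowest of all 16. Its log2 fold change of -0.20 ± 0.38 had a 95% interval from -1.01 to 0.61 (exact permutation p = 0.633), and it was -0.00014 without HLU 4. Part of this gene could not be read apart from its neighbour, because 1141 of its 8322 exon bases in GENCODE M21 are shared with Fastk on the opposite strand and no source says whether strand was used in counting. Shorter overlaps with opposite-strand genes exist for Ostm1 (410 exon bases, Gm15200) and Plekhm1 (334, Arhgap27os1).

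Plekhm1 is an adaptor that brings lysosomes to the ruffled border. Values were 7.01, 8.69 and 12.5 RPKM in control mice and 3.50, 9.57 and 11.5 RPKM in HLU mice, with HLU 4 the lowest. Here 6 of 8 HLU mice were above the control median although the log2 fold change was -0.12 ± 0.22 (SE, exact permutation p = 0.654). Without HLU 4 it was 0.05, so that library sets its sign.

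**Figure D2:**
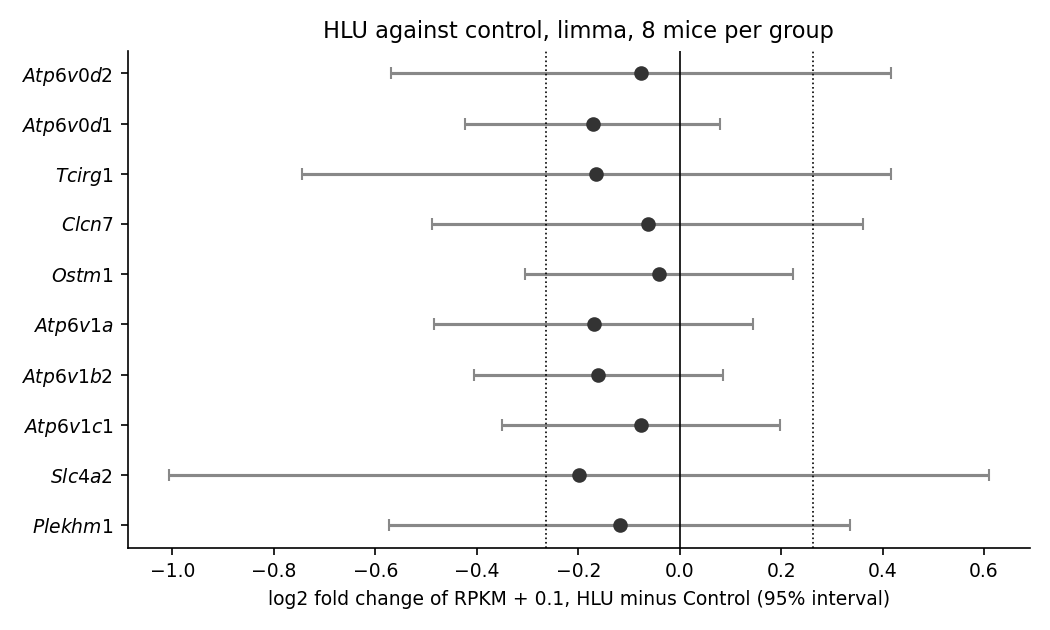
Log2 fold change of RPKM + 0.1, HLU minus control, with 95% intervals from limma (8 mice per group). The solid line is no change and dotted lines are 1.2-fold either way. Every interval spans 0, the narrowest for Atp6v1b2 and the widest for Slc4a2 (-1.01 to 0.61).

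Because RPKM is a level per length, the genes can also be ordered against each other over the 16 mice. Atp6v0d2 averaged 44.5 RPKM, Atp6v1c1 41.3, Atp6v1b2 37.0 and Atp6v0d1 35.2 RPKM. Next came Atp6v1a at 18.5 RPKM, then Tcirg1 at 12.3, Ostm1 at 10.4, Plekhm1 at 8.95, Clcn7 at 7.15 and Slc4a2 at 3.09 RPKM. Within mice, neighbours in this order were not separated for Atp6v0d2 and Atp6v1c1 (the former higher in 10 of 16 mice), Atp6v1b2 and Atp6v0d1 (11 of 16), Tcirg1 and Ostm1 (9 of 16) or Ostm1 and Plekhm1 (8 of 16), with adjusted p from 0.130 to 0.532 in an exact sign-flip test over 9 neighbour pairs. The step from Atp6v0d1 to Atp6v1a held in 16 of 16 mice (adjusted p = 0.000137 in the same exact test), as did that from Clcn7 to Slc4a2. The order rests on the gene lengths in the divisor, and those implied by the files differ from the merged exon lengths of GENCODE M21, with 2097 against 5601 bases for Atp6v1c1 and 7299 against 4603 for Tcirg1. With the latter lengths Atp6v1c1 would average 15.5 in place of 41.3 and rank 6, Atp6v1b2 would rank 1 at 45.7, and Clcn7 at 10.8 would stand above Plekhm1 at 7.69.

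The osteoclast-enriched subunits were then set against their broadly expressed counterparts within each mouse, a comparison free of library scaling but not of GC tilt. The ratio of Atp6v0d2 to Atp6v0d1 ran from 0.583 in Control 7 to 2.34 in Control 1 with a median of 1.01, and in HLU mice from 0.621 in HLU 3 to 1.90 in HLU 4 with a median of 1.32. The difference of 0.10 on the log2 scale was smaller than the spread within groups (exact permutation p = 0.763). Transcript GC content is 41.6% for Atp6v0d2 and 53.4% for Atp6v0d1. GC tilt was 0.67 in Control 7 and 0.26 in HLU 3, against -0.80 in Control 1 and -1.01 in HLU 4. The part of GC tilt in the range of these ratios was not tested. Among the a subunits Tcirg1 made up 22.0% to 44.4% of the summed RPKM in control mice (median 35.7%) and 21.8% to 43.4% in HLU mice (median 33.3%). The broadly expressed a2 isoform, Atp6v0a2, had a median share of 38.5% in control and 40.4% in HLU mice, a1 (Atp6v0a1) had 24.4% and 23.6%, and the kidney isoform a4 (Atp6v0a4) stayed at 1.73% or less. With the annotation's lengths Tcirg1 would average 19.5, above Atp6v0a1 at 12.7 and Atp6v0a2 at 10.9, so the order of these shares rests on the lengths, whereas a comparison of groups does not. Log2 ratios of Tcirg1 to Atp6v0a2 and to Atp6v0a1 differed between the groups by -0.07 (exact permutation p = 0.801) and -0.0038 (exact permutation p = 0.988), and by 0.067 and 0.085 without HLU 4.

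The B and C subunits were met almost wholly by the members. Atp6v1b1, the B isoform of kidney and inner ear, had at most 1 read in any library, and Atp6v1c2 contributed 1.63% or less of the summed C subunit RPKM. The ratio of A to B2 was the narrowest examined, from 0.409 to 0.632 in control and from 0.431 to 0.596 in HLU mice (medians 0.477 and 0.486, exact permutation p of the difference 0.922). Its extremes fell in the same mice as those of Atp6v0d2 to Atp6v0d1. The ratio of Clcn7 to Ostm1 was wider, from 0.325 to 1.13 in control and from 0.396 to 1.05 in HLU mice (exact permutation p = 0.938). It was lowest in Control 1 and HLU 4 and highest in Control 7 and HLU 6 (GC tilt 0.42). The part of GC tilt in these ranges was not tested either. Across the 5 ratios every adjusted p was 0.988.

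Between mice, the members did not vary as a single group. After removal of group means, 18 of 45 pairs correlated at an adjusted p under 0.05 (mice permuted within groups, 100000 permutations), 14 positively and 4 negatively. With median-of-ratios rescaling 22 pairs passed, 11 positively and 11 negatively, and the median r was -0.05 in place of 0.17, so the balance of signs depends on the scaling. The closest set held Tcirg1, Clcn7, Slc4a2 and Plekhm1. Tcirg1 and Clcn7 reached r = 0.972 (rho = 0.935, permutation p = 1e-05, the smallest possible, adjusted p = 0.00015), with r = 0.975 in control and 0.969 in HLU mice, and 0.972 without the 2 mice farthest from the median. Tcirg1 with Slc4a2 gave r = 0.958, Clcn7 with Slc4a2 0.949, and Plekhm1 with these genes 0.841 to 0.883. Atp6v0d1 also followed Clcn7 (r = 0.657), Tcirg1 (0.642) and Plekhm1 (0.612) of this set (adjusted p from 0.0247 to 0.0449 by permutation), but not Slc4a2 (0.471). By rank only its relation to Clcn7 passed (adjusted p = 0.0491 by permutation). Without the 2 farthest mice these values of r fell to between 0.202 and 0.453. The remaining osteoclast-enriched subunit was not in this set, since Atp6v0d2 and Tcirg1 had r = -0.28 (rho = -0.28, permutation p = 0.314, adjusted p = 0.415).

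Atp6v0d2 varied instead with V1 subunits. Its r was 0.782 with Atp6v1a (rho = 0.753, permutation p = 0.0008, adjusted p = 0.0036; 0.724 without the 2 farthest mice) and 0.715 with Atp6v1c1. Atp6v1a also followed Atp6v1c1 (r = 0.820) and Atp6v1b2 (r = 0.781), and Ostm1 followed Atp6v1c1 (r = 0.821). The negative pairs joined the sets, namely Atp6v1c1 with Slc4a2 (r = -0.69), Tcirg1 (-0.63) and Plekhm1 (-0.56), and Ostm1 with Slc4a2 (-0.69). By rank, the pairs of Slc4a2 with Atp6v1c1 and Ostm1 passed (adjusted p = 0.0253 and 0.0146 by permutation). Those of Atp6v1c1 with Tcirg1 and Plekhm1 did not (adjusted p = 0.0768 and 0.0640 by permutation). Without Control 1 only 10 pairs passed and none of them was negative, whereas leaving out any other single mouse gave 13 to 21 pairs. Over all 64940106 pairs of features at 2 RPKM or more, 15.5% had r of at least 0.6, against 31.1% of the member pairs, and 55.0% of all pairs and 53.3% of member pairs were above 0.

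**Figure D3:**
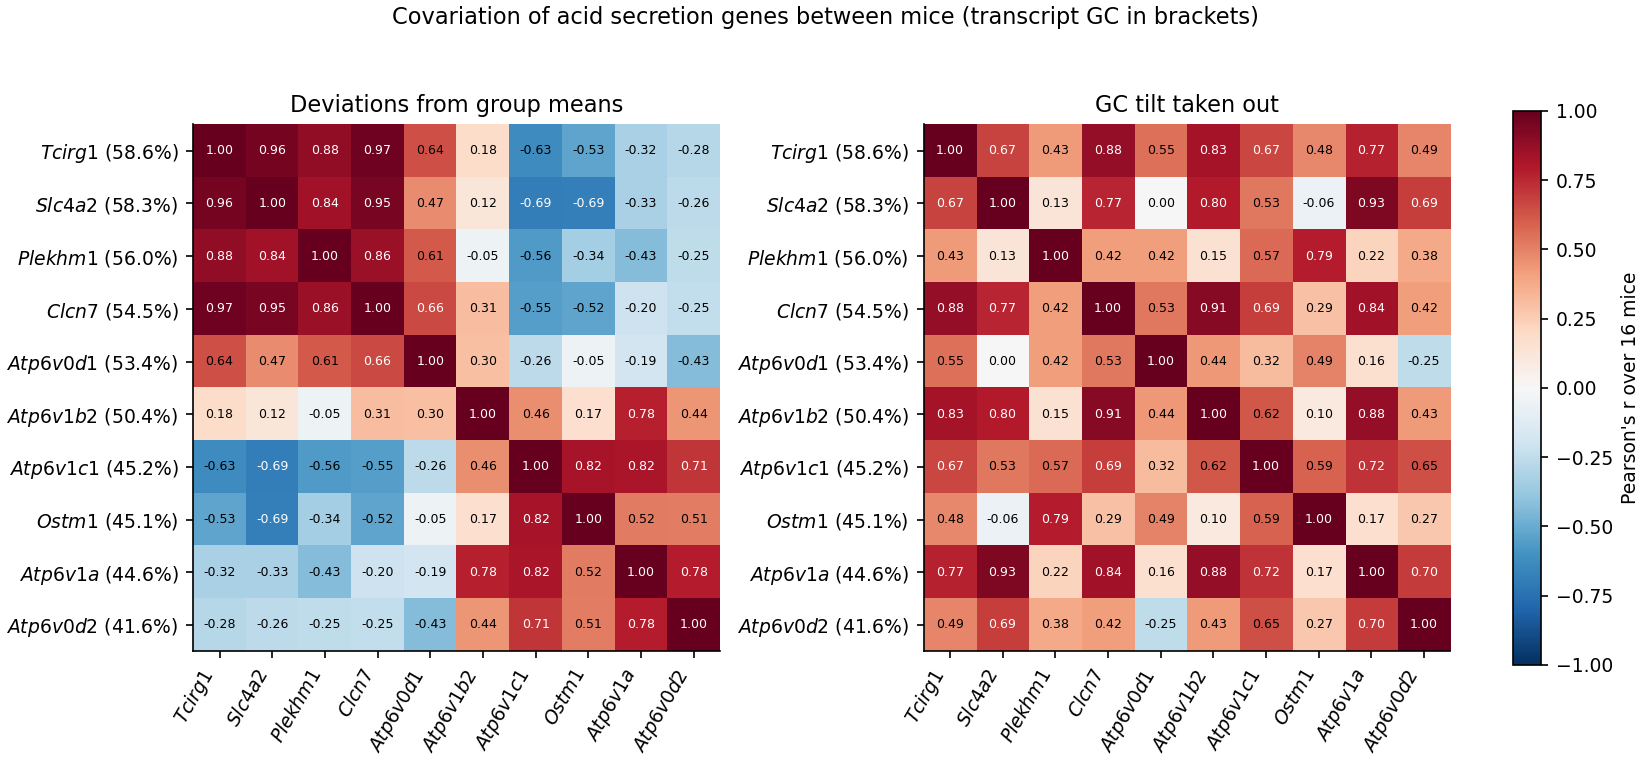
Pearson's r between members over 16 mice, as deviations from group means (left) and with the GC tilt of each library taken out as well (right), members ordered by transcript GC. On the left a red block of GC-rich genes (Tcirg1, Slc4a2, Plekhm1, Clcn7) faces blue values against the GC-poor genes, and on the right 43 of 45 values are above 0.

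The sets also differ in base composition. The longest protein-coding transcripts of Tcirg1, Slc4a2, Plekhm1 and Clcn7 have GC contents of 58.6%, 58.3%, 56.0% and 54.5%, and those of Atp6v0d2, Atp6v1a, Ostm1 and Atp6v1c1 have 41.6%, 44.6%, 45.1% and 45.2%. Each member of the first set followed the GC tilt of the library, with r = 0.946 for Slc4a2 (rho = 0.938, permutation p = 1e-05, adjusted p = 0.0003 over 30 relations), 0.925 for Tcirg1, 0.877 for Clcn7 and 0.867 for Plekhm1. In the other set r was -0.83 for Atp6v1c1 (adjusted p = 0.0009 by permutation), -0.71 for Ostm1, -0.60 for Atp6v1a (adjusted p = 0.053 by permutation) and -0.48 for Atp6v0d2 (adjusted p = 0.185 by permutation). The first set, Atp6v1a and Atp6v0d2 fall in the GC classes from which the tilt was computed, so the sign of their r is partly built in. How other genes of like GC content follow the tilt was not compared. Control 1, Control 4 and HLU 4, the lowest mice for Tcirg1, had the lowest GC tilts (-0.80, -0.82 and -1.01).

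**Figure D4:**
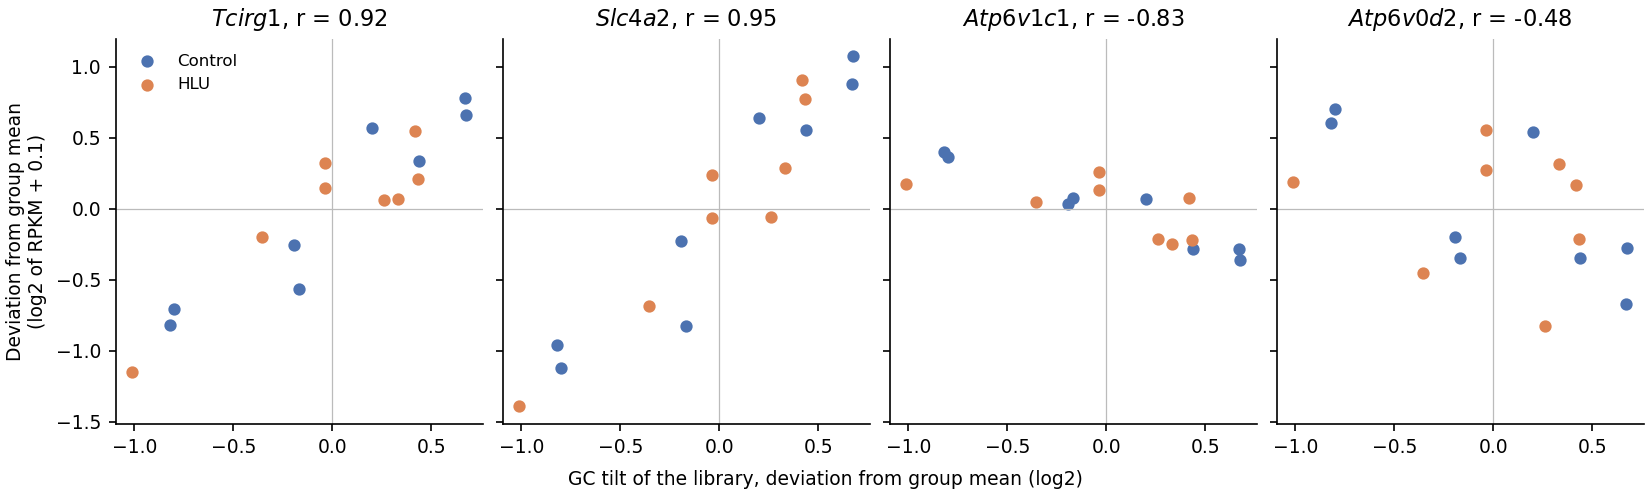
Deviation of 4 members from their group mean (log2 of RPKM + 0.1) against the GC tilt of the library, also as a deviation from the group mean, with 1 point a mouse. Tcirg1 and Slc4a2 climb with GC tilt (r = 0.92 and 0.95), Atp6v1c1 descends (r = -0.83), and Atp6v0d2 scatters (r = -0.48).

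With GC tilt taken out of the deviations, a step added after the data were seen, 18 pairs again passed and all 18 were positive. Its p-values make no allowance for that step. The median r moved from 0.17 to 0.53, and 43 of 45 pairs were above 0 against 59.8% of all feature pairs treated alike. Pairs across the former sets now went together, such as Slc4a2 with Atp6v1a (r = 0.933, rho = 0.938, permutation p = 1e-05, adjusted p = 0.000225) and Atp6v0d2 with Slc4a2 (r = 0.695, permutation p = 0.00375, adjusted p = 0.0141). Tcirg1 and Clcn7 kept r = 0.879, and Clcn7 with Atp6v1b2 reached 0.914. Atp6v0d2 and Tcirg1 had r = 0.491 (permutation p = 0.0661, adjusted p = 0.124), and Atp6v0d2 and Atp6v0d1 remained below 0 at r = -0.25 (permutation p = 0.385, adjusted p = 0.468). Over the leave-one-out sets 12 to 20 pairs passed, the fewest without HLU 5.

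The members were also compared with scores of cell type markers, each the mean log2 deviation of a marker list. Without regard to GC tilt, 1 of 50 relations passed, that of Atp6v0d1 with erythroid markers (r = 0.848, rho = 0.897, permutation p = 5e-05, adjusted p = 0.0025). An r of 0.65 or more with that score was held by 16.6% of the 11388 other features. Atp6v0d2 came closest among the others, with r = 0.682 to the osteoclast list (adjusted p = 0.107 by permutation). After GC tilt was taken out, 12 of 50 passed by Pearson's r and 7 of those were relations to osteoclast markers. By Spearman's rho, those of Atp6v0d2, Slc4a2 and Atp6v1a passed as well (adjusted p of 0.005 or less by permutation). Those of Tcirg1, Clcn7, Atp6v1b2 and Atp6v1c1 did not (adjusted p from 0.0735 to 0.124 by permutation). An r of 0.65 or more with that score was held by 7 of 10 members and by 4.61% of the 11389 other features compared. The 7 were Atp6v0d2 (r = 0.925, rho = 0.941, permutation p = 1e-05, adjusted p = 0.0005; 0.936 without the 2 farthest mice), Slc4a2 (0.883), Atp6v1a (0.870), Clcn7 (0.691), Atp6v1b2 (0.682), Atp6v1c1 (0.671) and Tcirg1 (0.665).

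The relations of Atp6v0d2, Slc4a2 and Atp6v1a changed least when mice were left out. For Atp6v0d2 the r stayed between 0.911 and 0.953 whichever mouse was left out, and for Slc4a2 and Atp6v1a it stayed at 0.836 or above. For Tcirg1, Clcn7 and Atp6v1b2 it dropped to 0.420, 0.458 and 0.488 without the 2 farthest mice, so those relations rest partly on them. The number of osteoclast relations passing was 3 without Control 8, HLU 2 or HLU 5, 4 without Control 2 or HLU 4, 5 without HLU 3 and 7 in the other 10 cases. Atp6v0d1 did not vary with osteoclast markers (r = -0.08, permutation p = 0.782) but with erythroid (r = 0.875, adjusted p = 0.00112 by permutation) and granulocyte markers (0.745). Ostm1 and Plekhm1 went with macrophage markers (r = 0.747 and 0.689) and Ostm1 also with granulocyte markers (0.776). Relations of that size were common, since an r of 0.65 or more was reached by 32.7% of the other features with erythroid, 34.9% with granulocyte and 24.3% with macrophage markers. Of these 5 relations that of Atp6v0d1 with erythroid markers passed in all 16 leave-one-out sets, while the other 4 were lost without HLU 2 or HLU 4, 2 of them also without HLU 5 and that of Plekhm1 also without Control 8 or HLU 3.

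**Figure D5:**
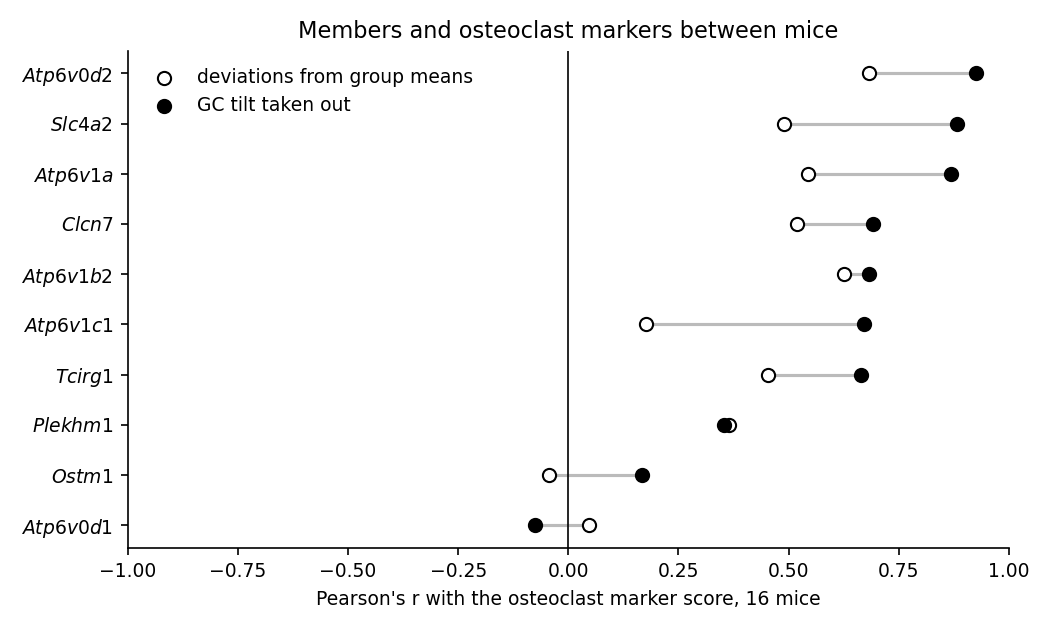
Pearson's r of each member with the osteoclast marker score over 16 mice, from deviations from group means (open) and with GC tilt taken out (filled). Filled points lie at 0.665 or above for 7 members and at 0.354 or below for Plekhm1, Ostm1 and Atp6v0d1.

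For 4 members the 5 features with the most similar pattern were listed among 11396 features, as a description. Those nearest Atp6v0d2 were Xpr1 (r = 0.927), a phosphate exporter, Enpp5, Mtx3, Oscar (0.894), a costimulatory receptor of osteoclasts, and Snx10 (0.892), a sorting nexin whose loss causes osteopetrosis. Snx10 was also the second nearest to Atp6v1a (0.939), after Tgfbr1 (0.951) and before Calcrl, Slc30a1 and BC016423. Tcirg1 was closest to Tcf25 (0.981), Bet1l, Sh3gl1, Slc29a1 and Csnk1e, with Clcn7 ranked 9. Nearest to Atp6v0d1 were Med22 (0.979), Fbxo34, Hebp1, Ftsjd2 and Hbb-b2 (0.952), the last a beta globin.

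Other genes of the pathway gave a similar picture between groups. Of 19 V-ATPase subunits and assembly factors tested outside the members, 0 passed as higher and 1 as lower at the unadjusted threshold. The shares over all features were 1.11% and 4.76%. The median log2 fold change of the 19 was -0.10. The gene that passed, Atp6v0c, encodes the proteolipid of the proton-carrying ring. Its control values were 4.16, 4.80 and 5.45 RPKM (lowest, median, highest) and its HLU values 2.85, 3.76 and 5.72 RPKM, and 7 of 8 HLU mice were below the control median. The log2 fold change was -0.32 ± 0.13 (SE, limma p = 0.0229, adjusted p = 0.744; exact permutation p = 0.0171). Under median-of-ratios rescaling it was -0.24, less than 1.2-fold, and the gene did not pass. The annotation names the pseudogenes Atp6v0c-ps1 and Atp6v0c-ps2, so its reads could be shared with near copies.

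Among 10 genes of proton, chloride and bicarbonate handling, 0 passed as higher and 1 as lower, against 1.11% and 4.76% of all features. That gene was Car2, carbonic anhydrase II, which supplies the protons in osteoclasts and is also abundant in erythroid cells. Car2 ran from 726 through 886 to 1481 RPKM in control and from 295 through 564 to 1095 RPKM in HLU mice, a log2 fold change of -0.65 ± 0.27 (SE, limma p = 0.0293, adjusted p = 0.744; exact permutation p = 0.0418). Between mice it followed the erythroid score with r = 0.969 (rho = 0.971, permutation p = 1e-05, adjusted p = 0.0001 over 10 relations). It also followed the granulocyte score (r = 0.902, adjusted p = 0.00035 by permutation) and had r = -0.31 with the osteoclast score (adjusted p = 0.391 by permutation). Which cells the Car2 reads came from was not tested. With the erythroid score as a covariate the Car2 difference was -0.06 and did not pass. Nor did it pass with erythroid and granulocyte scores (-0.16) or with the share of reads on listed features (-0.36) as covariates. It also missed the unadjusted threshold when Control 6, Control 7, HLU 1, HLU 4 or HLU 7 was left out, with differences from -0.58 to -0.50. Of 13 trafficking genes and 15 genes of lysosomal biogenesis tested, 0 passed in either direction, against 5.87% of all features. Their median log2 fold changes were 0.02 and -0.09.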

How the data were processed

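RNA of 16 mice was sequenced by the authors from TruSeq libraries. The labels' processing notes name TopHat2 and mm9, and the counting tool, annotation and gene lengths are not given in the sources used here. The deposited values were taken as RPKM from the values themselves, since the labels do not name the unit. Whether the divisor includes a scaling between libraries is not given in the sources used here, and listed features hold 76.3% to 93.2% of it. Groups came from the sample titles, which give no lane or date. The members and gene lists were chosen with earlier results of these data known, and the named genes were all members, pathway genes with unadjusted p under 0.05, substitute isoforms and the 5 nearest patterns.

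The groups were compared by log2(RPKM + 0.1), which understates changes of low genes, over 16973 features whose mean reached 0.5 RPKM, with limma 3.58.1 in R 4.3.3 (trend, Benjamini-Hochberg over all features). Single values were tested over all 12870 splits of 8 and 8, two-sided, in Python 3.11.15 with numpy 2.4.6. Intervals and p-values measure the spread between these mice. Whole reads were recovered for 16972 of 16973 kept features (tolerance 0.02 reads; 3000 of 3000 simulated features right). On simulated data limma recovered 139 of 200 genes changed 2-fold, with 12 false calls. GC content came from GENCODE M21 for 14774 of 15760 features with a unique symbol, and 1108 kept features share the name Rnf135. A depth of 3 reads on 1 kilobase corresponds to 0.140 to 0.424 RPKM, and covers counting error only.

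Alternatives were other pseudocounts, filters and scalings, a replicate block, voom, marker scores as covariates and leaving out each mouse. GC tilt, listed share of reads and erythroid score as covariates, leaving out the 2 smallest libraries and annotated gene lengths were added after the data were seen.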

Additional observations from a re-analysis of the deposited data

Results flagged for a closer look

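In 40 groups of 8 mice, a mouse was called far from the others where its gap to the nearest exceeded Dixon's critical value for 8 samples. Chance gives about 1 in 20 such calls, and 2 were found, both in the same mouse. Tcirg1 in HLU 4 was 4.82 RPKM, with the next lowest HLU mouse at 9.41 RPKM. The ratio of Tcirg1 to Atp6v0a2 in HLU 4 was 0.422, with the next lowest at 0.770. HLU 4 also had the lowest GC tilt of the 16 libraries (-1.01), and the part of that in these values was not tested.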

How the results depend on the processing

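No comparison of a member or ratio rests on a call, so the settings below bear on directions and counts. Features past the adjusted threshold numbered 1 in place of 0 with no minimum, with no trend, with voom and with the listed share as covariate. Features past the unadjusted threshold numbered 996 (188 higher, 808 lower), against 376 higher and 401 lower with median-of-ratios rescaling, 460 and 364 with quantile normalization, 2454 with erythroid and granulocyte scores, 360 with the erythroid score and 1638 with GC tilt as covariates. Without 1 mouse they were 588 to 1748 (649 without Control 6, 659 without Control 7, 629 without HLU 1, 588 without HLU 7 and 1748 without HLU 2), with 0 to 1 adjusted (1 without HLU 2) and 0 to 0 members. Members past the unadjusted threshold numbered 2 of 10 in place of 0 with erythroid and granulocyte scores, namely Atp6v0d2 (-0.64) and Atp6v1c1 (-0.33). In that setting 2454 of 16973 features passed, so 2 calls do not set the members apart from other features.

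Differences turned above 0 under median-of-ratios rescaling for Atp6v0d2 (0.011), Clcn7 (0.022), Ostm1 (0.045) and Atp6v1c1 (0.011), under quantile normalization for Atp6v0d2 (0.055), Clcn7 (0.043), Ostm1 (0.089), Atp6v1c1 (0.067) and Plekhm1 (0.00091), and under voom for Atp6v0d2 (0.0084), Clcn7 (0.015), Ostm1 (0.047) and Atp6v1c1 (0.012). With erythroid and granulocyte scores this held for Atp6v0d1 (0.12), Tcirg1 (0.47), Clcn7 (0.40), Slc4a2 (0.59) and Plekhm1 (0.23), with the erythroid score for Atp6v0d1 (0.031), Tcirg1 (0.042), Clcn7 (0.073), Ostm1 (0.018) and Plekhm1 (0.068), and with the listed share for Atp6v0d2 (0.010), Ostm1 (0.12) and Atp6v1c1 (0.047). The cause was not tested. With GC tilt as a covariate every member stayed below 0, from -0.040 for Ostm1 to -0.20 for Slc4a2 (limma p from 0.116 to 0.730 over the members). Without Control 4, whose GC tilt was -0.82, Tcirg1 was -0.28, Slc4a2 -0.34, Clcn7 -0.12 and Plekhm1 -0.17. Without 1 mouse Atp6v0d2 ran from -0.17 to 0.043, Tcirg1 from -0.28 to 0.00046, Clcn7 from -0.15 to 0.045, Ostm1 from -0.088 to 0.025 and Plekhm1 from -0.19 to 0.055. The log2 ratios ran from -0.049 to 0.24 for Atp6v0d2 to Atp6v0d1, -0.20 to 0.067 for Tcirg1 to Atp6v0a2, -0.11 to 0.085 for Tcirg1 to Atp6v0a1, -0.17 to 0.085 for Clcn7 to Ostm1 and -0.050 to 0.039 for Atp6v1a to Atp6v1b2.

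Pairs of members that passed numbered 32 (16 positive, 16 negative) in place of 18 with the osteoclast score taken out, and 10 to 21 without 1 mouse. Marker relations numbered 12 in place of 1 with GC tilt taken out, and 1 to 1 without 1 mouse. With GC tilt taken out and 1 mouse left out they numbered 4 (without HLU 2) to 14 (without HLU 1), with 7 without Control 8, 5 without HLU 4 and 6 without HLU 5. Of the 16 sets with 1 mouse left out, Car2 lost its unadjusted p under 0.05 in 5 and Atp6v0c in 0, and Atp6v0c lost it under both settings with an erythroid covariate. Atp6v0c also missed the 1.2-fold part of the threshold under median-of-ratios rescaling (-0.24) and quantile normalization (-0.22). It missed that part narrowly with a pseudocount of 1 (-0.2629) and without HLU 4 (-0.2624). Mouse numbers share no litter or batch in the labels, and only 3 of 8 same-numbered pairs had deviations correlated above 0.1, so the numbers do not pair the mice. A replicate block gave 199 higher and 840 lower features, 0 adjusted and 0 members. Depth limits what can be said of Atp6v1b1, with 1 read at most.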

Other observations

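Itgb3, the beta chain of the osteoclast integrin that is also carried by platelets and megakaryocytes, was the 1 of 9 osteoclast markers tested that passed the unadjusted threshold. It ran from 79.4 through 96.1 to 125 RPKM in control and from 50.1 through 69.2 to 106 RPKM in HLU mice (lowest, median, highest), with a log2 fold change of -0.46 ± 0.16 (SE; limma p = 0.0121, adjusted p = 0.744; exact permutation p = 0.0171). The median of the 9 markers was -0.01, and 4.76% of all features passed that threshold as lower in HLU. The Itgb3 difference was -0.35 with erythroid and granulocyte scores as covariates and still passed, but it did not with the erythroid score alone (-0.22) or the listed share (-0.30), both added after the data were seen.

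Ostm1 followed the share of the reads of a library that fell on listed features (r = 0.841, rho = 0.885, permutation p = 9e-05, adjusted p = 0.000675 over 30 relations; 0.804 without the 2 farthest mice). Atp6v1c1 (r = 0.614) and Slc4a2 (r = -0.626) also varied with that share, each at an adjusted p of 0.0381 by permutation. How features outside the members vary with it was not compared. The share was 88.8 ± 4.28% in control mice and 84.9 ± 5.29% after HLU (SD over 8 mice each), a difference with an exact permutation p of 0.133.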
